A study of Mus musculus with 26 samples.

Results

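Small pre-B cells labelled CXCR4-/- were compared with wild-type small pre-B cells by RNA-seq of sorted cells, gene by gene. The 4 libraries are 2 titled as wild type and 2 labelled CXCR4-/- (called "labelled deficient" below), chosen by their titles. They are 4 of the 18 RNA-seq libraries of a mouse series of 26 samples on CXCR4 signalling, recombination of the kappa light chain locus and late B cell development. The other RNA-seq libraries came from cultures and enter here only to estimate the spread between replicates. Both groups carry the cell type label small pre-B, were flow-sorted and had no treatment named. No label used here gives the age, sex or strain of the mice, the tissue, the sort gates, or how and in which cells Cxcr4 was deleted. The sources do not say whether replicates of a group are separate animals, and the p-values then describe library-to-library spread that could be technical.

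B cell progenitors grow in the bone marrow near stromal cells that make the chemokine CXCL12, whose receptor CXCR4 is coupled to inhibitory G proteins. Large pre-B cells divide under interleukin 7 and the pre-B cell receptor (pre-BCR), in which the surrogate light chain made by Igll1, Vpreb1 and Vpreb2 stands in for a light chain. They then leave the cell cycle as small pre-B cells and rearrange their light chain genes with the Rag1 and Rag2 recombinase, and cells with a working light chain mature as IgM-bearing B cells.

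The wild-type libraries held 19297551 and 17678225 counts and those labelled deficient 32461696 and 27343664. Levels are given as CPM, counts relative to the library total after TMM scaling. Cxcr4, the targeted gene, was at 943 and 922 CPM in wild type and at 37.2 and 409 CPM in replicates 1 and 2 labelled deficient. Both labelled-deficient values lay below both wild-type values, but replicate 2 kept more than replicate 1 by 3.44 on the log2 scale. Which exons were removed is not stated in the labels, and a message that keeps other exons would still add to this count. Replicate 2 thus goes against its label in part, and each direction drawn from it rests on that label. The change of Cxcr4 was -2.06 ± 0.67 on the log2 scale (adjusted p = 0.031, edgeR's quasi-likelihood test with Benjamini-Hochberg adjustment, as for all adjusted p-values here). It was -4.65 without replicate 2 and -1.20 without replicate 1 labelled deficient, and its call was lost without either wild-type replicate (adjusted p of 0.082 and 0.099).

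The libraries also stood apart in ways that the labels do not name. Xist, the RNA of the inactive X chromosome, was at 474 and 411 CPM in wild type and 31.5 and 2078 CPM in those labelled deficient, and the Y-linked gene Ddx3y at 139 and 124 CPM in wild type and 87.9 and 0.0725 CPM in those labelled deficient. Both wild-type libraries thus held Xist and Y-linked transcripts together, while Y-linked transcripts were near 0 in replicate 2 labelled deficient and Xist was low in replicate 1. The 19 myeloid markers tested summed to 6034 and 5984 CPM in wild type and 7444 and 1283 CPM in those labelled deficient. Of them 3 (15.8%) were called higher and 1 (5.26%) lower, beside 16.6% and 17.6% of all genes tested, and Lyz1 was at 0 in replicate 2. The 7 erythroid markers summed to 61.2 and 64.6 CPM against 165 and 58.9 CPM, with 2 higher. In such bulk samples, fewer cells of a type and less RNA per cell cannot be told apart. T cell markers summed to 65.8 and 63.9 CPM against 57.9 and 66.8 CPM (2 of 13 higher and 4 lower), with Cd8b1 and Bcl11b at 0 in replicate 2 labelled deficient. Those of NK cells summed to 28.7 and 26.6 CPM against 25.1 and 11.4 CPM (0 of 9 higher and 4 lower), with Klre1 and Gzmb at 0 there. Of 12 genes of B lineage identity 1 was higher and 4 lower, with Rag1, Il2ra and Cd79a among the lower. The 12 summed to 13853 and 13424 CPM in wild type and to less, 9594 and 10971 CPM, in those labelled deficient. All 4 libraries thus held them at high levels. Pax5, which was not called, was at 282 and 308 CPM in wild type and 321 and 371 CPM in those labelled deficient.

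**Figure D1:**
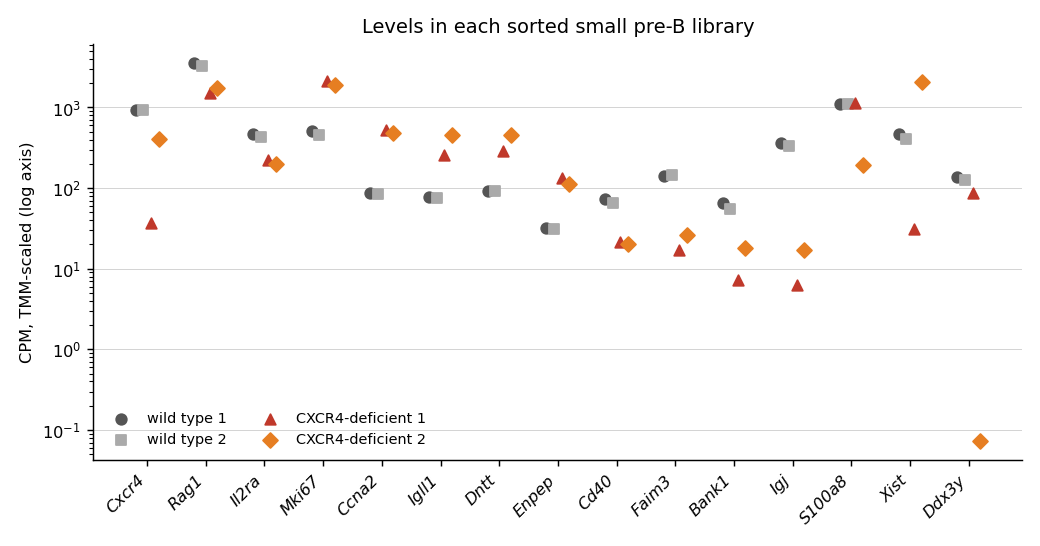
Level of 15 genes in each of the 4 libraries, as CPM on a log axis, with grey circles and squares for wild type, red triangles for replicate 1 and orange diamonds for replicate 2 labelled deficient. The 2 wild-type libraries lie together, while the 2 labelled deficient part at Cxcr4 (37.2 and 409 CPM), S100a8 (1122 and 193 CPM), Xist and Ddx3y.

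The wild-type pair differed from the 16 other RNA-seq libraries of the series too. There were 31 genes at 2 CPM or more in both wild-type libraries and under 0.2 CPM in each of the 16 others, and 0 such genes for any of the other 8 groups. H2-Ea-ps, a pseudogene of the class II histocompatibility locus, was at 114 and 112 CPM in wild type and at 0 counts in both libraries labelled deficient, at least 2289-fold lower (against 3 counts over the group). Of 26 of the 31 with a known strand, 11 (42.3%) share bases with a gene on the opposite strand, as do 18.7% of all tested genes of known strand. Fndc9, which shares bases with Cyfip2 on the opposite strand, was at 172 and 160.0 CPM in wild type and 0 and 0.181 CPM in those labelled deficient. Of the 12 largest falls among well expressed genes, 11 were to at most 0.76 CPM in each library labelled deficient, and Ighg3 was the other. Genes at least 25% higher in wild-type replicate 2 than in 1 numbered 359 of 9165 at a mean of 8 CPM or more, and 192 of these (53.5%) were called higher in those labelled deficient, against 18.1% of the 8747 whose wild-type replicates lay within 25% of each other. The 16 others include cultures not labelled deficient. The cause was not tested, and whatever sets the wild-type pair apart cannot be told apart from the genotype in this design. For several lists, counts are therefore also given over genes for which no opposite-strand overlap was found. The search covered only genes of known strand. The strand of 3398 of 14862 tested genes (22.9%) was unknown, so an overlap with such a gene would be missed. Rises given below known to share bases with an opposite-strand gene include Hjurp, Cdc20, Mcm7, Ticrr, Eme1, Mxd3, Ccnd3, Cdk4, Bak1 and D730005E14Rik. Overlap is unknown for other rises, Ccna2, Aurkb, H2afx, Foxm1 and Socs2 among them.

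Of 14862 genes tested, 5079 (34.2%) were called at an adjusted p under 0.05, 2462 (16.6%) higher and 2617 (17.6%) lower in the libraries labelled deficient. The words rose and fell are used below of called genes alone. The counts of called members in each list and marker group are to be read beside these shares of all genes where all libraries are kept. Fits with a library left out called fewer of all genes too. Their list counts are not to be read beside these shares. The median log2 change over all genes tested was -0.01. Both labelled-deficient libraries lay above both wild-type ones for 33.1% of genes and below them for 37.0%. Groups that do not overlap are thus common. For genes named below by a small p or after their values were seen, this follows in part from the pick. Called genes that changed at least 2-fold numbered 1191 higher and 1146 lower, and a test for a change past 2-fold called 3.74% higher and 3.9% lower. The calls numbered 3137 without wild-type replicate 1. Of the 9316 genes with no opposite-strand overlap found, 3029 were called when tested alone, 1627 higher and 1402 lower.

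**Figure D2:**
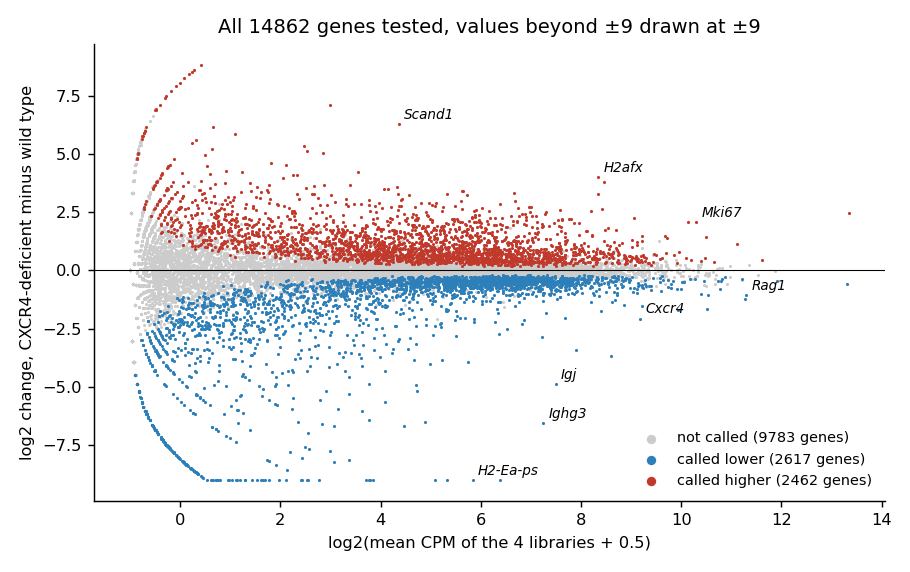
Log2 change, labelled deficient minus wild type, against the log2 of the mean CPM of the 4 libraries plus 0.5, with 1 point per gene tested, red for the 2462 called higher, blue for the 2617 called lower and grey for the rest. Points reach both high and low levels in both directions, and the genes drawn at the lower edge are near 0 in the libraries labelled deficient.

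Genes that run cell division were higher in the libraries labelled deficient. Of 25 cyclins and mitotic kinases 24 rose and 1 fell (median log2 change 1.92), beside 16.6% of all genes that rose. Ccna2, cyclin A2 of S phase and mitosis, was at 87.0 and 84.2 CPM in wild type and 522 and 479.9 CPM in those labelled deficient. Both labelled-deficient libraries lay far above both wild-type ones and near each other (log2 change 2.55 ± 0.09, adjusted p = 3e-09). Cdk1, the mitotic kinase that Ccna2 and cyclin B activate, was at 39.9 and 40.3 CPM and 213 and 184 CPM (log2 change 2.31 ± 0.18). Plk1, a kinase of spindle assembly, was at 16.7 and 23.8 CPM and 161 and 133 CPM (2.86 ± 0.16). Aurkb, the kinase of the chromosomal passenger complex, rose by 2.18 ± 0.08 and Ccnf by 2.70 ± 0.11. The 1 member that fell was Cks2, a small subunit that binds cyclin-dependent kinases, at 5.36 and 6.24 CPM and 3.79 and 4.06 CPM (-0.56 ± 0.18).

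Genes of the spindle and of chromosome movement were higher as well. Of 25 spindle and cytokinesis genes 24 rose and 0 fell (median 2.03), and Sass6, a centriole gene, was the 1 that did not pass, at 0.29 ± 0.13. Racgap1, which with the kinesin Kif23 forms the centralspindlin complex of cytokinesis, was at 69.7 and 64.9 CPM in wild type and 319 and 287 CPM in those labelled deficient (2.17 ± 0.08, adjusted p = 6.9e-09). Kif23 was at 44.0 and 47.2 CPM and 239 and 215 CPM (2.32 ± 0.10). In both genes the groups were well separated.

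Of 20 kinesins 16 rose and 1 fell (median 1.88). The motors of the spindle were among the 16, such as Kif11, which slides its poles apart (102 and 88.8 CPM and 608 and 573 CPM, 2.63 ± 0.17), and Kifc1 (2.75 ± 0.10). Kif3b, a motor of intracellular transport, fell (-0.39 ± 0.10), and its partner Kif3a (-0.13 ± 0.13) and the cargo motor Kif5b (-0.09 ± 0.26) did not pass. Of 33 centromere and kinetochore genes 28 rose and 1, Cenpq, fell (median 1.71). Hjurp, the chaperone that loads the centromeric histone Cenpa, was at 7.94 and 9.04 CPM and 86.0 and 93.2 CPM (3.40 ± 0.10, adjusted p = 1.9e-09), while Cenpa itself was at 88.2 and 87.5 CPM and 228 and 223 CPM (1.36 ± 0.25). Hjurp shares bases with an opposite-strand gene.

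Genes of mitotic exit changed in part. Of 23 such genes 11 rose and 0 fell (median 0.36). Cdc20, the activator of the anaphase-promoting complex, was at 35.5 and 40.1 CPM in wild type and 221 and 211 CPM in those labelled deficient (2.51 ± 0.13), and its ubiquitin-conjugating enzyme Ube2c at 18.6 and 18.5 CPM and 191 and 176 CPM (3.30 ± 0.20). Core subunits of the complex such as Cdc27 (0.21 ± 0.15), Anapc1 (0.14 ± 0.20) and Anapc4 (-0.07 ± 0.10) did not pass. Of 23 condensin and cohesin genes 13 rose and 2 fell (median 0.64). The condensin subunit Ncapd2 was at 194 and 182 CPM and 906 and 862 CPM (2.23 ± 0.11), whereas Wapal, which releases cohesin, fell (-0.84 ± 0.23).

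The counts of the cyclin, spindle, kinetochore and kinesin lists were also taken with each library left out. Without replicate 2 labelled deficient, which kept Cxcr4, 24 cyclins and mitotic kinases, 24 spindle genes, 27 centromere and kinetochore genes and 16 kinesins were called higher. Without replicate 1 labelled deficient they were 24, 23, 27 and 15, without wild-type replicate 1 they were 24, 22, 27 and 15, and without wild-type replicate 2 they were 24, 22, 26 and 15. Among members with no opposite-strand overlap found, 16 of 17 cyclins and mitotic kinases and 17 of 17 spindle genes rose. So did 15 of 19 centromere and kinetochore genes and 13 of 16 kinesins. Of the 24 spindle genes at 8 CPM or more whose wild-type replicates lay within 25% of each other, 23 rose.

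**Figure D3:**
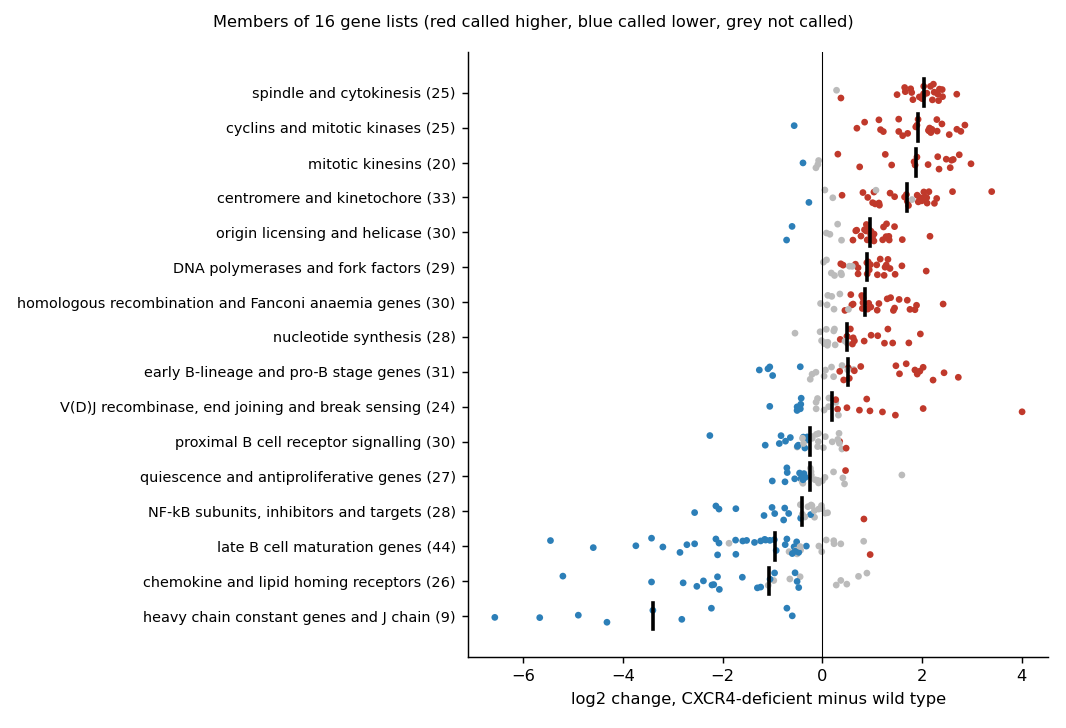
Log2 change, labelled deficient minus wild type, of each tested member of 16 gene lists, with 1 point per gene (red called higher, blue called lower, grey not called), a black bar at the list's median and the number tested in brackets. Mitotic lists lie near 2, replication lists near 1, and the maturation, homing receptor and heavy chain lists lie below 0.

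The promoters of these genes were searched for letters known to bind cell cycle regulators, in windows of 300 bases (250 before to 50 after the start) from RefSeq, build GRCm38.p6. The 5 mitosis lists are those of cyclins and mitotic kinases, mitotic exit, kinesins, kinetochore and spindle. Motifs, on either strand, were TTTGAA (the cell cycle genes homology region, or CHR, bound by the DREAM and MuvB complexes), TTCCCGC or TTGGCGC (E2F), CCAAT (the CCAAT box of NF-Y), GTAAACA (FOXO) and the NF-kB motif. TTTGAA was in 48 of 103 promoters of the mitosis lists (46.6%), beside 11.9% of all 10659 promoters matched to tested genes. E2F letters were in 25 of 48 promoters of the licensing and polymerase lists (52.1%), beside 11.9% of all, and in 19.4% of the mitosis lists. CCAAT was in 65.0% of the mitosis promoters and 38.3% of all. Of all genes that rose, 17.5% held E2F letters and 14.7% TTTGAA, and of all that fell 7.85% and 12.5%. GTAAACA was in 4 of 25 promoters of the quiescence list, beside 2.37% of all, and the NF-kB motif in 2 of 22 of the NF-kB list (9.09%), beside 0.45% of all. A match is a description of letters, not a bound site. The 120 bases before the start are shown for 4 genes that rose, 3 of mitosis and Mcm6 of the replicative helicase, picked after the motif positions were seen because they hold motifs there. Each is 5′ to 3′ on the gene's own strand, which is the minus strand for all 4, with the motifs in capitals (CCAAT on the other strand reads ATTGG).
Mki67 (chr7:135716380-135716499): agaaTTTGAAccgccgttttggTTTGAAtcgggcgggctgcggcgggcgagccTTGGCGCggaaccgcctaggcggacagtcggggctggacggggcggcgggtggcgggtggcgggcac
Cdk1 (chr10:69352913-69353032): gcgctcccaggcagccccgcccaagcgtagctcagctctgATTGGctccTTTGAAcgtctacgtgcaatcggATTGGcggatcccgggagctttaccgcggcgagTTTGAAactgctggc
Cdc20 (chr4:118437344-118437463): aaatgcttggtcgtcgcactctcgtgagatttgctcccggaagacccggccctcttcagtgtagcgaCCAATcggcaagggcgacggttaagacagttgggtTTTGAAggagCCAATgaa
Mcm6 (chr1:128359706-128359825): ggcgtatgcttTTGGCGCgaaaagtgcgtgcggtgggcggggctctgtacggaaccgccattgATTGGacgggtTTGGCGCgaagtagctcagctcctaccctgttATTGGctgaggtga
Mki67, a marker of dividing cells, holds TTTGAA with its first base 116 and 98 bases before the start and the E2F letters TTGGCGC at 67. Cdk1 holds TTTGAA at 71 and 15 and Cdc20 at 18, each with CCAAT boxes close by. Mcm6 holds TTGGCGC at 109 and 46 and no TTTGAA in the stretch shown. Its level was 253 and 234 CPM in wild type and 382 and 364 CPM in those labelled deficient (0.62 ± 0.07), and that of Mki67 505 and 462 CPM and 2159 and 1915 CPM (2.08 ± 0.15).

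DNA replication genes were higher too, with smaller median changes than the cyclin, kinesin, kinetochore and spindle lists. Of 30 origin licensing and helicase genes 24 rose and 2 fell (median 0.96). Mcm7 of the helicase was at 158 and 159.6 CPM in wild type and 329 and 309 CPM in those labelled deficient (1.01 ± 0.08, adjusted p = 1.6e-06). The kinase subunit Dbf4, which with Cdc7 fires origins, was at 34.02 and 35.2 CPM and 109 and 102 CPM (1.61 ± 0.07), and Ticrr, an initiation factor, at 23.7 and 21.9 CPM and 104 and 100.4 CPM (2.16 ± 0.17). The groups did not overlap in these 3 genes, which were picked for a small p. The 2 that fell were the origin recognition subunits Orc3 (-0.61 ± 0.08) and Orc4 (-0.72 ± 0.09). Both share bases with an opposite-strand gene, as do Mcm7 and Ticrr among the genes that rose. Of the 17 licensing genes with no such overlap found 15 rose and 0 fell.

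Of 29 DNA polymerase and fork genes 21 rose and 0 fell (median 0.90), among them Top2a, which untangles DNA, at 439 and 415 CPM and 1912 and 1712 CPM (2.09 ± 0.18). Asf1b, a histone chaperone, rose by 1.60 ± 0.08, whereas Pole3 (0.03 ± 0.18) and Top1 (0.18 ± 0.24) did not pass. Of 28 nucleotide synthesis genes 15 rose and 0 fell (median 0.50). They included Rrm1 and Rrm2 of ribonucleotide reductase, with Rrm2 at 163 and 167 CPM and 595 and 506 CPM (1.74 ± 0.09). Of the purine and pyrimidine pathway enzymes, Umps (0.26 ± 0.11), Atic (-0.04 ± 0.14) and Gmps (0.08 ± 0.10) did not pass.

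Of 30 genes of homologous recombination and the Fanconi anaemia pathway 23 rose and 0 fell (median 0.86). The nuclease subunit Eme1 was at 6.47 and 7.12 CPM in wild type and 39.4 and 33.5 CPM in those labelled deficient (2.43 ± 0.11), with both labelled-deficient libraries above both wild-type ones. Its partner Mus81 did not pass (0.10 ± 0.11).

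Histone genes were higher too, from low levels. Of 53 replication-dependent histone genes 36 rose and 0 fell (median 2.71), and their summed level was 163 and 167 CPM in wild type and 285 and 351 CPM in those labelled deficient. Hist1h1e, a linker histone, was at 1.52 and 1.53 CPM and 10.3 and 9.46 CPM (2.70 ± 0.40). The histone messages of this kind mostly lack a poly(A) tail, the libraries were made from polyadenylated RNA, and members have near-identical copies, so these values are uncertain. Of them 22 were called higher without wild-type replicate 1, and without wild-type replicate 2, 24. Of 22 variant histone and chaperone genes 12 rose and 2 fell (median 0.45). H2afx, whose histone marks DNA breaks, was at 35.0 and 40.7 CPM in wild type and 628 and 591 CPM in those labelled deficient (4.01 ± 0.33, adjusted p = 2.1e-06), a large gap between groups that each lay close. H3f3a fell from 83.6 and 105 CPM to 34.5 and 34.6 CPM (-1.44 ± 0.31), while H3f3b, which makes the same histone H3.3, did not pass (0.32 ± 0.15).

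The genes that govern entry into the cell cycle moved in both directions. Of 12 D cyclins, their kinases and their inhibitors 8 rose and 2 fell. Ccnd3, the D cyclin of dividing pre-B cells, was at 329 and 373 CPM in wild type and 872 and 789 CPM in those labelled deficient, Ccnd2 at 77.9 and 80.2 CPM and 57.2 and 58.8 CPM, and Ccnd1 at 9.60 and 9.20 CPM and 3.24 and 1.05 CPM. Ccnd3 rose (1.24 ± 0.12), Ccnd1 fell (-2.10 ± 0.40) and Ccnd2 did not pass (-0.45 ± 0.18, adjusted p = 0.069, though it was called lower with RLE size factors, with no filter, by DESeq2 and with the 4 libraries fitted alone). Their kinases Cdk4 (0.92 ± 0.12) and Cdk6 (1.04 ± 0.18) rose. Ccnd3 and Cdk4 share bases with opposite-strand genes.

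Of the inhibitors, Cdkn2c, which binds Cdk4 and Cdk6, was at 27.3 and 24.6 CPM in wild type and 87.7 and 84.4 CPM in those labelled deficient (1.73 ± 0.08, adjusted p = 2.3e-08). Cdkn1a, also a p53 target, was at 14.5 and 15.9 CPM and 35.9 and 35.5 CPM (1.23 ± 0.09). Cdkn1b, which holds resting lymphocytes out of the cycle, was at 292 and 284 CPM and 179.6 and 197 CPM and fell (-0.61 ± 0.10). Cdkn1c, Cdkn2d and Cdkn2a rose from low levels (0.809 and 0.767, 2.68 and 3.12 and 0.202 and 0.219 CPM in wild type), and the call of Cdkn2a was lost without either wild-type replicate or replicate 1 labelled deficient.

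Of 21 E2F, pocket protein and DREAM genes 12 rose and 2 fell (median 0.50). The mitotic activator Foxm1 was at 70.9 and 71.7 CPM and 337 and 306 CPM (2.17 ± 0.20), and the repressors E2f7 (1.68 ± 0.15) and E2f8 (1.88 ± 0.18) rose with it. E2f2, an activator E2F, rose by 0.33 ± 0.07, and Rb1, which restrains E2F, fell (-0.54 ± 0.16). Of 27 quiescence and antiproliferative genes 1 rose and 11 fell (median -0.24), beside 17.6% of all genes that fell. Btg1 was at 753 and 756 CPM in wild type and 412 and 486 CPM in those labelled deficient (-0.75 ± 0.10), and its relatives Btg2 (-0.71 ± 0.10) and Tob1 (-1.003 ± 0.15) also fell. Foxo1, a transcription factor that opposes division and drives Rag expression, fell from 556 and 528 CPM to 376 and 429 CPM (-0.43 ± 0.09). Klf2 (0.45 ± 0.29) and Foxo3 (0.41 ± 0.51), also of this list, did not pass. Without either wild-type replicate 7 of the 27 were called lower.

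In the MYC network, 3 of 14 rose (21.4%) and 2 fell (14.3%), near the 16.6% and 17.6% of all genes. Myc itself was at 22.1 and 21.4 CPM in wild type and 21.9 and 24.4 CPM in those labelled deficient and did not pass (0.09 ± 0.08). Mxd3, of the MXD repressor family and found in S phase, was at 6.57 and 8.16 CPM and 76.4 and 68.3 CPM (3.30 ± 0.24), whereas Mxd4 of the same family fell (-0.64 ± 0.11). Of 32 genes of DNA methylation and Polycomb 11 rose and 5 fell (median 0.11). Dnmt1, the maintenance methyltransferase, was at 288 and 299.8 CPM and 750.0 and 723 CPM (1.33 ± 0.26) and its partner Uhrf1 rose by 1.18 ± 0.08, while the de novo enzyme Dnmt3a did not pass (-0.15 ± 0.12). Ezh2, the Polycomb methyltransferase of dividing cells, rose (0.62 ± 0.11) and Ezh1, that of resting cells, fell (-0.66 ± 0.11). Without wild-type replicate 1, 9 of this list were called higher and 1 lower, and without replicate 1 labelled deficient 8 and 2.

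**Figure D4:**
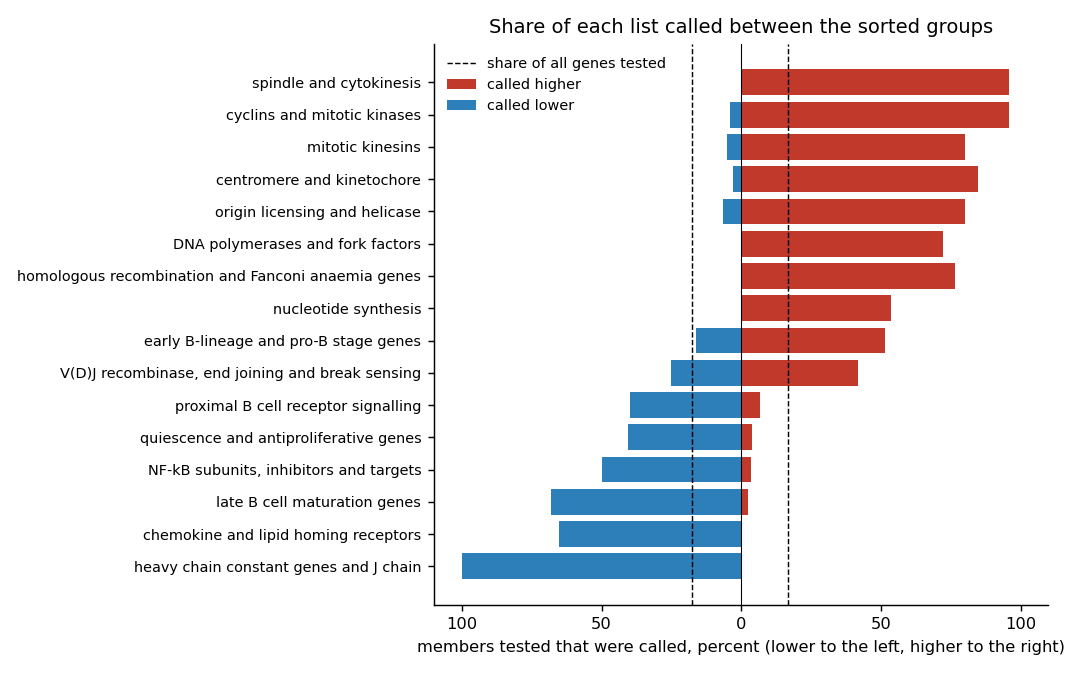
Share of the tested members of 16 gene lists that were called higher (red, to the right) or lower (blue, to the left) in the libraries labelled deficient, in percent, with dashed lines at the 16.6% higher and 17.6% lower of all genes tested. Cyclins and spindle genes reach 96.0% higher, and all 9 heavy chain constant and J chain genes lie on the lower side.

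More genes of the earlier pro-B and large pre-B stages rose than fell in the libraries labelled deficient. In the pre-BCR list of 7 genes, 3 rose and 2 fell. Igll1 was at 77.5 and 75.3 CPM in wild type and 259 and 455 CPM in those labelled deficient, Vpreb1 at 32.1 and 37.7 CPM and 139.8 and 241 CPM and Vpreb2 at 3.34 and 3.61 CPM and 11.8 and 14.3 CPM. In all 3, replicate 2 labelled deficient was the highest library, and the groups did not overlap (log2 changes 2.22 ± 0.27, 2.44 ± 0.39 and 1.91 ± 0.34). Vpreb3, which is related but is not part of the surrogate light chain, did not pass (-0.02 ± 0.29). Of the chains that carry signals, Ighm, the mu heavy chain, fell from 12240.4 and 12245 CPM to 7817 and 8318 CPM (-0.60 ± 0.08). Cd79a was at 1277 and 1317 CPM and 465 and 1017 CPM (-0.81 ± 0.26), and its call was lost without replicate 1 labelled deficient or either wild-type replicate.

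Of 31 early B-lineage genes 16 rose and 5 fell (median 0.51). Their summed level was 15231.5 and 15181.5 CPM in wild type and 15210.8 and 16552.3 CPM in those labelled deficient. Dntt, the template-free polymerase of heavy chain joining, was at 91.7 and 92.2 CPM in wild type and 287 and 462 CPM in those labelled deficient (2.02 ± 0.19, adjusted p = 8.5e-06). Enpep, the pre-B surface antigen BP-1, was at 31.9 and 30.9 CPM and 132 and 112 CPM (1.96 ± 0.16), and Kit, the stem cell factor receptor of pro-B cells, at 7.68 and 8.76 CPM and 27.6 and 18.2 CPM (1.48 ± 0.21). Il2ra, which makes CD25 and marks small pre-B cells, fell from 466 and 431 CPM to 223 and 199 CPM (-1.09 ± 0.10). Flt3, a receptor of still earlier progenitors, also fell (-1.26 ± 0.42). Without replicate 2 labelled deficient, 13 of the list were called higher and 5 lower. The 13 pro-B and progenitor markers, 12 of them in this list, summed to 861 and 893 CPM in wild type and 1784 and 2405 CPM in those labelled deficient, with 9 higher and 2 lower.

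Of 22 progenitor transcription factors 10 rose and 3 fell (median 0.49). Their summed level was 3693 and 3572 CPM in wild type and 3222 and 3524 CPM in those labelled deficient. Lef1 was at 69.1 and 73.2 CPM and 164 and 252 CPM (1.55 ± 0.15) and Erg at 27.0 and 27.9 CPM and 74.5 and 125 CPM (1.86 ± 0.49), with the top value of each in replicate 2 labelled deficient. Bcl11a (-0.995 ± 0.13), Myb (-0.44 ± 0.07) and Runx2 (-1.51 ± 0.36) fell. Fewer of the list were called higher without wild-type replicate 1, as was so for all genes tested. Of 27 B-lineage transcription factors 3 rose (11.1%) and 4 fell (14.8%), below the 16.6% and 17.6% of all genes (median -0.13). With RLE size factors these were 3 and 9 and by DESeq2 3 and 11. Pax5 (0.23 ± 0.23), Ebf1 (-0.13 ± 0.23) and Irf4 (-0.23 ± 0.09) did not pass. Of the 3 BRWD chromatin readers Brwd1 (-0.43 ± 0.10, from 202 and 184 CPM to 131 and 155 CPM) and Phip (-0.41 ± 0.14) fell. Brwd1 lost its call without wild-type replicate 1 (adjusted p = 0.064), and Phip lost its call without any 1 of the 4 libraries.

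The recombination genes of small pre-B cells did not share a direction. Of 24 recombinase, end joining and break sensing genes 10 rose and 6 fell (median 0.20). Rag1 was at 3571 and 3232 CPM in wild type and 1526 and 1752 CPM in those labelled deficient (-1.05 ± 0.25), and Rag2 at 163 and 157 CPM and 161 and 167 CPM (0.04 ± 0.08). Rag1 was thus lower in both libraries labelled deficient, while Rag2 did not pass. Of the end joining factors, the ligase Lig4 (-0.43 ± 0.08), the nuclease Dclre1c (-0.44 ± 0.14) and the polymerase Polm (-0.50 ± 0.12) fell. The polymerase Poll, of the same family as Polm, rose from 5.51 and 6.63 CPM to 16.5 and 17.0 CPM (1.47 ± 0.18). Prkdc (-0.12 ± 0.17) and Atm (-0.10 ± 0.20), the kinases that answer breaks, did not pass. Among the others that rose were Hmgb1 (0.89 ± 0.10) and Hmgb2 (1.21 ± 0.30), cofactors of the recombinase that also have near-identical copies. Without wild-type replicate 1, 7 of the list were called higher and 3 lower, and without replicate 1 labelled deficient 8 and 2.

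Genes of later B cell maturation were lower in the libraries labelled deficient. Of 44 such genes 30 fell and 1 rose (median -0.94). Ms4a1, which makes CD20, was at 273 and 247 CPM in wild type and 19.0 and 53.02 CPM in those labelled deficient. Faim3, the Fc receptor of IgM, was at 139.6 and 143 CPM and 16.9 and 26.2 CPM, and Cd40, the receptor for T cell help, at 72.7 and 65.8 CPM and 21.4 and 20.3 CPM. The wild-type values lay several-fold above both others in each (log2 changes -2.86 ± 0.33, -2.72 ± 0.18 and -1.73 ± 0.21, adjusted p for Faim3 = 4.8e-07). Cd83 (-2.56 ± 0.15) and the complement receptor Cr2 (-3.74 ± 0.32) fell as well, and the 1 that rose was Plac8 (0.96 ± 0.31).

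Of 4 members of antigen presentation picked after their values were seen, 2 fell. Cd74, the invariant chain, fell from 861 and 890.4 CPM to 339 and 273 CPM (-1.52 ± 0.23) and H2-Ob, a class II modulator, from 579 and 550.4 CPM to 204 and 236 CPM (-1.36 ± 0.10), whereas H2-Ab1 (0.08 ± 0.18) and the class II activator Ciita (-0.43 ± 0.27) did not pass. Without replicate 2 labelled deficient 29 of the 44 were called lower and without replicate 1 27. Of the 26 members with no opposite-strand overlap found, 16 fell and 1 rose. The 15 markers of mature B cells, all of them in this list, summed to 2607 and 2470.4 CPM in wild type and 1234 and 1377 CPM in those labelled deficient, with 11 lower and 0 higher. None of them was at 0 in any of the 4 libraries. The part of other B cell stages in these levels was not tested.

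Immunoglobulin heavy chain transcripts were lower as well. The 9 heavy chain constant and J chain genes all fell (median -3.40, or -2.82 with Ighe, which is at 0 in those labelled deficient, set to its bound). Ighg3 was at 298 and 301 CPM in wild type and 0.394 and 6.06 CPM in those labelled deficient (-6.57 ± 0.75), and Igj, the J chain of secreted IgM and IgA, at 361 and 334 CPM and 6.36 and 17.1 CPM (-4.90 ± 0.38). Igha was at 425 and 449 CPM and 14.3 and 68.8 CPM (-3.40 ± 0.53). With these 4 libraries fitted alone, 5 of the 9 were called lower, and Ighg3 and Igha were not. Of 12 plasma cell markers, 5 of which are these same immunoglobulin genes, 8 were lower and 0 higher. Among the rest, Tnfrsf17 was at 0 in both libraries labelled deficient, while Sdc1 (-0.01 ± 0.13), Prdm1 (-0.34 ± 0.24) and Mzb1 (0.24 ± 0.17) did not pass.

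Segments of the kappa locus, a group added after the values were seen, moved the same way. Of 118 Igk variable segments tested 94 fell and 0 rose (median -2.12). Their summed level was 1357 and 1326 CPM in wild type and 214 and 274 CPM in those labelled deficient. The 5 Igk joining segments fell, with sums of 242 and 232 CPM against 88.9 and 88.0 CPM. Of 123 heavy chain variable segments 68 fell and 0 rose (median -1.17), with sums of 1400.03 and 1329 CPM against 527 and 586 CPM. Of these, 42 were called lower without wild-type replicate 1. Variable segments have near-identical copies, so single members are uncertain.

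Receptors that place lymphocytes in tissues were lower, Cxcr4 among them. Of 26 chemokine and lipid homing receptors 17 fell and 0 rose (median -1.07), and the targeted gene Cxcr4 is counted among the 17. P2ry10, a receptor for lysophospholipids, was at 32.0 and 32.2 CPM in wild type and 6.91 and 5.37 CPM in those labelled deficient (-2.38 ± 0.16, adjusted p = 4.3e-07). Lpar6, a lysophosphatidic acid receptor, was at 55.6 and 49.0 CPM and 22.4 and 28.3 CPM (-1.05 ± 0.12) and the cannabinoid receptor Cnr2, which holds immature B cells in the marrow, at 67.5 and 63.4 CPM and 27.8 and 39.7 CPM (-0.96 ± 0.23). In each the groups were apart. S1pr1, the receptor for egress into blood, fell from 112 and 112 CPM to 63.1 and 90.3 CPM (-0.55 ± 0.13), and Ccr7, a receptor of lymph node entry, fell too (-0.47 ± 0.13). Cxcr5 (-0.44 ± 0.17) and S1pr4 (0.37 ± 0.15) did not pass. Without wild-type replicate 2, 10 of the list were called lower, with the 4 libraries fitted alone 10, and without replicate 2 labelled deficient 16, with 2 called higher. Several members stood at a few CPM, and those shared with myeloid cells differed between the libraries labelled deficient, as in Cxcr2 (41.3 and 41.3 CPM and 35.0 and 3.81 CPM).

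Genes of the signalling path from CXCR4 were called at shares near those of all genes, and their message levels do not measure signalling. Of 32 genes of CXCR4 and G protein signalling 4 rose (12.5%) and 5 fell (15.6%), with a median of -0.05, close to the 16.6% and 17.6% of all genes. Cxcr4, the targeted gene, is itself among the 5 that fell. The list had 1 higher and 1 lower without wild-type replicate 1, and without wild-type replicate 2 it had 2 and 2. The Gi subunit Gnai2 was at 591 and 647 CPM in wild type and 760.0 and 709 CPM in those labelled deficient (0.25 ± 0.08), a call that was lost without wild-type replicate 1 or replicate 1 labelled deficient. Gnb2 (0.62 ± 0.18) rose and Gng2 (-0.38 ± 0.12) fell, and each lost its call without 1 or more of the 4 libraries. Gna13 (-0.03 ± 0.12), Gnaq (-0.03 ± 0.12) and Gnb1 (0.10 ± 0.07) did not pass. The receptor kinase Adrbk1 was at 1667 and 1808 CPM and 1871 and 1843 CPM (0.10 ± 0.07), and Grk6 (-0.001 ± 0.13) and the arrestins Arrb1 (0.08 ± 0.18) and Arrb2 (-0.02 ± 0.28) did not pass either.

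Among the regulators that end G protein signals, Rgs2 fell. It was at 747 and 719 CPM in wild type and 357 and 403 CPM in those labelled deficient, so that both labelled-deficient values were far below both wild-type ones (-0.95 ± 0.18, adjusted p = 0.0013). Rgs16 was at 6.32 and 5.80 CPM and 10.7 and 16.4 CPM (1.16 ± 0.32), a rise whose call was lost without wild-type replicate 1, wild-type replicate 2 or replicate 2 labelled deficient. Rgs19 (-0.28 ± 0.15) and Rgs14 (-0.07 ± 0.08) did not pass. Elmo1, which with Dock2 activates Rac in migrating cells, rose from 68.0 and 65.7 CPM to 99.7 and 104 CPM (0.61 ± 0.15), a call lost without wild-type replicate 2 (adjusted p = 0.057), and Dock2 (-0.36 ± 0.21), Rac1 (0.06 ± 0.17) and Rac2 (0.04 ± 0.12) did not pass. The scavenging receptor Cxcr7, which also binds CXCL12, fell at about 1 CPM (-2.21 ± 0.64) and lost its call without 3 of the 4 libraries. The ligand Cxcl12 was at 5.10 and 4.55 CPM and 6.76 and 1.27 CPM, with the 2 libraries labelled deficient on either side of wild type.

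Of 34 genes of the RAS to ERK cascade 5 rose and 10 fell (median -0.12). Rasgrp1, an activator of RAS, fell from 267 and 245 CPM to 182 and 185 CPM (-0.48 ± 0.08) while Rasgrp2, which acts on RAP1, rose from 158 and 184 CPM to 285 and 312 CPM (0.80 ± 0.11). Dusp6, a phosphatase induced by ERK, was at 231 and 245 CPM and 103 and 160.4 CPM (-0.86 ± 0.16) and Spry2, a feedback inhibitor, fell (-0.71 ± 0.15), whereas Dusp7 rose (1.80 ± 0.27). Without wild-type replicate 1 this list had 2 higher and 4 lower, and without wild-type replicate 2 it had 3 and 4. Of 24 EGR, NR4A and AP-1 genes 3 rose (12.5%) and 5 fell (20.8%), near the 16.6% and 17.6% of all genes. Egr1, an immediate target of ERK, was at 60.5 and 62.2 CPM in wild type and 6.51 and 30.3 CPM in those labelled deficient (-1.74 ± 0.45), with replicate 2 between replicate 1 and wild type. Jund was at 113 and 216 CPM and 457 and 699.8 CPM (1.81 ± 0.39), a gene in which the wild-type replicates also differed.

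Proximal B cell receptor signalling genes leaned lower. Of 30 such genes 12 fell and 2 rose (median -0.25). Malt1 (-0.74 ± 0.16) and Bcl10 (-0.30 ± 0.08), which act together towards NF-kB, fell. Bank1, a B cell scaffold, was at 65.3 and 55.9 CPM in wild type and 7.21 and 18.2 CPM in those labelled deficient (-2.26 ± 0.34), a call lost with the 4 libraries fitted alone. The kinases Syk (-0.21 ± 0.14) and Btk (-0.20 ± 0.09) and the adaptor Blnk (-0.08 ± 0.19) did not pass. Inpp5d, the lipid phosphatase SHIP1, rose (0.48 ± 0.15) and the tyrosine phosphatase Ptpn6, SHP1, fell (-0.64 ± 0.08).

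Of 28 NF-kB subunits, inhibitors and targets 14 fell and 1 rose (median -0.40). The targets Nfkbiz (66.9 and 65.4 CPM and 31.3 and 37.0 CPM, -0.95 ± 0.10), Tnfaip3 (212 and 211 CPM and 112 and 135 CPM, -0.77 ± 0.19) and Ltb (86.2 and 101 CPM and 20.02 and 24.6 CPM, -2.07 ± 0.25) fell in both libraries labelled deficient. Rela (-0.01 ± 0.08), Nfkb1 (-0.29 ± 0.21) and the inhibitor Nfkbia (-0.02 ± 0.12) did not pass. Cd40, Cd83 and Ltb are in the maturation list as well. Without wild-type replicate 2, 9 of the 28 were called lower, as without replicate 1 labelled deficient.

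Of 24 genes of the IL-7 receptor, JAK-STAT and SOCS 6 rose and 8 fell (median -0.18). Il7r was at 689.8 and 641 CPM in wild type and 577 and 579 CPM in those labelled deficient and did not pass (-0.20 ± 0.11). Socs2, a STAT5 target, rose from 6.52 and 6.68 CPM to 31.5 and 28.7 CPM (2.19 ± 0.17, adjusted p = 1.4e-06), and Cish, also a STAT5 target, by 0.82 ± 0.12. Jak3, which signals from the shared gamma chain, rose (1.43 ± 0.21), while the gamma chain gene Il2rg fell (-0.62 ± 0.08). Crlf2, a receptor for the related cytokine TSLP, was at 4.65 and 11.8 CPM and 39.2 and 47.0 CPM (2.40 ± 0.39).

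Of 18 BCL2 family genes 5 rose and 6 fell. Bcl2, which protects from cell death, was at 15.0 and 16.8 CPM in wild type and 5.66 and 5.26 CPM in those labelled deficient (-1.54 ± 0.14), and Mcl1, also protective, fell from 712 and 670.2 CPM to 419 and 459 CPM (-0.65 ± 0.09). Bmf, a killer protein, fell too (590.3 and 565 CPM and 209.6 and 267 CPM, -1.28 ± 0.27). Bak1, an effector of death, rose (0.62 ± 0.08), as did the protective Bcl2l2 (1.32 ± 0.23), and Bcl2l1 (-0.10 ± 0.10) and Bax (0.07 ± 0.28) did not pass. Protective and killing members were thus found among both the genes that rose and those that fell.

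Of 38 integrin and adhesion genes 6 rose and 10 fell (median -0.17), and 14 were called lower without replicate 1 labelled deficient. Itga5, the fibronectin receptor subunit, was at 2.88 and 3.18 CPM in wild type and 35.7 and 37.0 CPM in those labelled deficient (3.58 ± 0.17, adjusted p = 2.3e-08), while Itga4, which with Itgb1 binds Vcam1 on stroma, did not pass (564 and 487 CPM and 494 and 603 CPM, 0.06 ± 0.23), nor did Itgb1 (0.14 ± 0.17). Itgb3 fell (-0.88 ± 0.09) and the semaphorin receptors Plxnb2 (1.27 ± 0.13) and Plxnd1 (1.23 ± 0.17) rose.

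Among the 12 largest rises at a mean of 8 CPM or more, 8 were in none of the cell division, histone or MYC lists. Scand1 was at 0.253 and 0.767 CPM in wild type and 39.7 and 39.5 CPM in those labelled deficient (6.29 ± 0.94). Ctse, the aspartic protease cathepsin E, was at 48.7 and 45.5 CPM and 636 and 683 CPM (3.81 ± 0.13, adjusted p = 3e-09), and Neurl1b, a ubiquitin ligase of Notch ligands, at 2.83 and 2.74 CPM and 34.1 and 29.7 CPM (3.52 ± 0.14). Celsr1, a cadherin of planar polarity, rose by 3.48 ± 0.30, Pcp4l1 by 4.22 ± 0.32 and D730005E14Rik by 3.66 ± 0.16. Sapcd2 rose by 3.40 ± 0.21 and Itga5 is given above. In all 8 both labelled-deficient libraries lay well above both wild-type ones, which follows in large part from picking the largest rises. D730005E14Rik shares bases with an opposite-strand gene.

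The largest falls among genes with no opposite-strand overlap found, a view added after the values were seen, were led by Gm14492, Klk1b22, Gm20743 and Gpld1. The first 3 of them are among the 31 genes seen in the wild-type pair alone. Ribosomal protein genes with near-identical copies (Rpl38, Rps16 and Rps7) and Igj were also among the top falls. The 4 genes below were picked from the 30 largest of these falls after their values were seen. Ifi30, a lysosomal thiol reductase of antigen processing, was at 705 and 723 CPM in wild type and 60.1 and 50.6 CPM in those labelled deficient (-3.69 ± 0.24). Il6st, the shared receptor chain gp130, was at 160.4 and 152 CPM and 27.1 and 28.1 CPM (-2.50 ± 0.21). Btla, an inhibitory receptor, was at 99.5 and 89.7 CPM and 12.0 and 29.2 CPM (-2.20 ± 0.30) and Abca1, a cholesterol exporter, at 339 and 322 CPM and 71.5 and 90.9 CPM (-2.02 ± 0.24). Replicates of each group lay closer to each other than to the other group in each of these 4.

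The 2 libraries labelled deficient differed more from each other than the wild-type pair did, with a chi-square per degree of freedom of 42.6 over 13443 genes against 5.999 over 13274. Among the culture groups it ran from 1.34 to 250. The spread behind the p-values and errors here is thus shared with pairs unlike the sorted ones. Single genes are read here with no test because each side is 1 library. The 6 genes higher by the largest ratio in replicate 2 were Xist, Cxcr4, Ighg3, Fosb, Eps8l1 and Igha. Fosb, an AP-1 subunit, was at 27.5 and 29.0 CPM in wild type and 3.57 and 24.6 CPM in replicates 1 and 2, so that replicate 2 was near wild type. Fos followed that order at a smaller ratio (147 and 152 CPM and 43.4 and 107 CPM), and Jun was highest in replicate 2 (277 and 376 CPM and 179.9 and 497 CPM). The 6 genes higher by the largest ratio in replicate 1 were the Y-linked Eif2s3y, Ddx3y, Kdm5d and Uty, then Olfm4 and Aqp1. Myeloid genes such as Mpo (98.8 and 102 CPM and 537 and 79.7 CPM) and S100a8 (1118 and 1118 CPM and 1122 and 193 CPM) were also higher in replicate 1. Mitotic genes were alike in both, as in Tpx2 of the spindle (71.4 and 67.9 CPM and 343 and 302 CPM). Whether sex, myeloid transcripts and the retained Cxcr4 in replicate 2 have a part in the changes was not tested. With X and Y genes left out, 4932 genes were called.

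**Figure D5:**
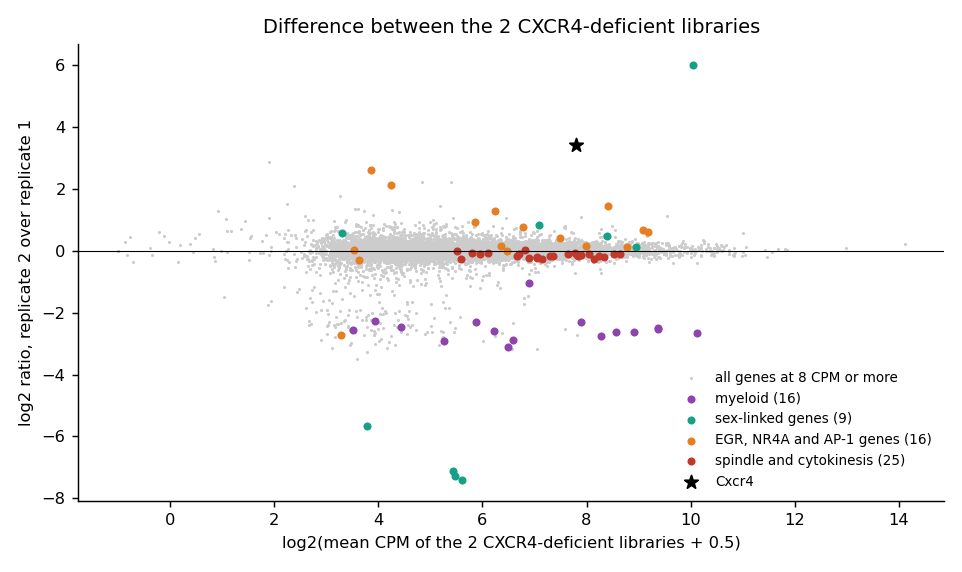
Log2 ratio of replicate 2 over replicate 1 labelled deficient against the log2 of their mean CPM plus 0.5, for genes at a mean of 8 CPM or more over the 4 libraries (grey), with 4 lists in colour and Cxcr4 as a star. Spindle genes (red) lie near 0, myeloid markers (purple) below it, and Cxcr4 lies at 3.44.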

How the data were processed

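Sorted small pre-B cells were measured by RNA-seq of polyadenylated RNA with a stranded kit, per the labels' protocols. The authors deposited 1 table of raw read counts per gene symbol for 18 libraries. STAR, featureCounts and mm9 are named in the submitters' processing notes, and neither they nor the labels give the strand setting of the counting. The 4 libraries held between 17678225 and 32461696 counts. All 18 libraries in 9 groups of 2 were fitted with edgeR 4.0.16 (R 4.3.3) by its quasi-likelihood test, after TMM normalization and filterByExpr, to estimate the spread, and the contrast was labelled deficient minus wild type. A gene was called where the Benjamini-Hochberg adjusted p over all 14862 tested was under 0.05. Log2 changes are given ± a standard error worked back from the test's F statistic. It rests on the spread shared over all 18 libraries and is not the spread of the 4 sorted libraries alone. With 2 libraries a group, an exact permutation test over samples could not reach that threshold, so none was used. The code was tested on simulated data.

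The members and gene lists were chosen with earlier results of these data known. Genes were named by rule as Cxcr4 and all members of the G protein, pre-BCR and D cyclin lists, the 12 largest rises and falls at a mean of 8 CPM or more, up to 4 members of each list with the smallest p, and the 6 largest ratios each way between the libraries labelled deficient. Other genes named were chosen after their values were seen. Gene overlap was read from RefSeq gene positions (GRCm38.p6), matched by symbol or synonym, with the strand taken from the RefSeq promoter windows. Of 23762 symbols, 21903 matched a RefSeq symbol directly. Overlap was unknown for 3398 tested genes (22.9%), which had no strand there. Promoter sequences and their coordinates come from RefSeq on the same build, not from the mm9 build of the counts. The 14 alternatives included RLE size factors, DESeq2 1.42.0, other filters, the 4 libraries alone, each library left out, and a fit to genes without opposite-strand overlap that was chosen after seeing the data. Same-numbered replicates did not deviate together (correlation -0.00312 over 14862 genes), so the numbers were not taken as pairs. The chromatin accessibility files were not used here. Values of some list members are not reported here.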

Additional observations from a re-analysis of the deposited data

How the results depend on the processing

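Of 5079 genes called, a test for a change past 2-fold called 1135, and genes with no opposite-strand overlap found tested alone gave 3029. Leaving out 1 library gave 3137 to 4686, the lowest without wild-type replicate 1. RLE size factors gave 5257 (41.5% higher, against 48.5%) and moved the median of all genes from -0.01 to -0.08, DESeq2 gave 5638, no filter 4910, a minimum of 1 CPM 4875, the 4 libraries alone 5417 and close culture pairs summed 4172. The fit with a replicate block called 5054, with 4900 shared, though the numbers do not pair the samples, and it turned Xist to -0.76. Of 538 list members called, 185 passed 2-fold and 349 were called among genes with no overlap found. Cxcr4 (-2.06) lost its call with the 4 libraries alone (-2.03), past 2-fold (-2.06) and with close culture pairs summed (-2.07), and ranged from -4.65 to -1.20 without 1 library. Many of the 166 called genes among those named by rule were picked for a small p or a large change in these data. How they fare without 1 library therefore does not speak for all calls. Signs turned with the 4 libraries alone for Gna13 (0.0042), Gnaq (0.000860), Arrb2 (0.011), Grk6 (0.034, and 0.021 with no overlap) and Vpreb3 (0.013), and with RLE and DESeq2 for Rac1 (-0.00782 in both), Rac2 (-0.0276 in both) and Pik3r5 (-0.00878 and -0.00913). Leaving out 1 library turned signs over these ranges: Cxcl12 -1.94 to 0.48, Gna13 -0.10 to 0.023, Gnaq -0.10 to 0.016, Arrb1 -0.25 to 0.33, Arrb2 -0.54 to 0.34, Adrbk2 -0.42 to 0.75, Grk6 -0.074 to 0.053, Rgs10 -0.19 to 0.48, Rac2 -0.0057 to 0.077, Vpreb3 -0.094 to 0.033, Xist -3.81 to 2.22 and Aqp1 -1.24 to 2.33. Apart from Xist and Aqp1 none of these turned genes was called in the turned fit, and the cause was not tested.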

Other observations

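Further groups gave smaller or mixed changes. Of 32 interferon-stimulated genes 3 rose and 10 fell (median -0.16). The sensor Ddx58 was at 180.2 and 168 CPM in wild type and 99.7 and 112 CPM in the libraries labelled deficient (-0.71 ± 0.14) and Mx1 fell by -1.03 ± 0.26, whereas Ifit2 rose (0.80 ± 0.23). Without wild-type replicate 1, 2 were called higher and 4 lower. Of 24 p53 targets 4 rose and 7 fell (median -0.13), and Ddb2, a DNA repair gene, rose (1.36 ± 0.13) while Rrm2b, a ribonucleotide reductase subunit, fell (-0.98 ± 0.21). Of 33 lysosome and autophagy genes 3 rose and 12 fell (median -0.27). The cathepsin gene Ctss was at 124 and 119.6 CPM and 70.0 and 76.3 CPM (-0.73 ± 0.10) and the autophagy gene Atg7 at 43.8 and 45.4 CPM and 28.2 and 24.9 CPM (-0.75 ± 0.09). Of them 6 were called lower without wild-type replicate 1, and without wild-type replicate 2, 7. Of 22 glycolysis genes 4 rose (18.2%) and 2 fell (9.09%), beside 16.6% and 17.6% of all genes (median -0.06).

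Markers of plasmacytoid dendritic cells summed to 3048 and 3182 CPM in wild type and 2738 and 2686 CPM in the libraries labelled deficient, a sum held mainly by genes that B cells also express. Of these 10 markers 1 rose and 4 fell, and Siglech was at 19.8 and 17.9 CPM and 2.54 and 0.580 CPM (-3.56 ± 0.44). Stromal and endothelial markers summed to 398 and 395 CPM against 481 and 339 CPM, with 1 of 15 higher and 1 lower. RNA quality and stress genes summed to 3537 and 2829 CPM against 2083 and 2888 CPM, with 1 of 9 lower. Megakaryocyte markers were low in all 4 libraries, at sums of 5.96 and 7.83 CPM against 12.2 and 2.68 CPM, with 1 of 7 lower.

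Of 85 cytosolic ribosomal protein genes, which have many near-identical copies, 11 rose and 11 fell (12.9% each way, below the 16.6% and 17.6% of all genes tested, median -0.07). Of the members with the largest changes, Rpl38 was at 30.5 and 34.2 CPM in wild type and 0.576 and 0.725 CPM in the libraries labelled deficient, Rps16 at 11.3 and 33.9 CPM and 1.42 and 1.16 CPM, and Rpl5 at 2.83 and 2.90 CPM and 19.1 and 22.0 CPM. The cause was not tested.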
